A study of Mus musculus with 9 samples.

Results

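The enzymes that make eicosanoids were followed in J774A.1, a mouse macrophage cell line, through 10 genes: Pla2g4a, Alox5, Alox5ap, Lta4h, Ltc4s, Alox15, Ptgs1, Ptgs2, Ptges and Tbxas1. They were chosen by gene symbol for their place in the pathway (phospholipase A2, lipoxygenases with their partner protein, cyclooxygenases and terminal synthases), and each matched 1 of the 26157 genes of the table. The study sequenced 9 poly-A libraries from this single line, 3 in each of 3 groups. Control cells had ordinary medium, the M2 group was given IL-4 plus IL-13 (10 ng/mL), and the Q11 group was given both cytokines and Q11, which the title calls a CYP2E1 inhibitor, at the same time. Neither the dose of Q11 nor the length of treatment is given in the sources used here, and no sample had Q11 alone. The cytokine dose is given for the M2 group only, so whether the Q11 group had the same dose is not known. The labels do not say whether the libraries of a group came from separate cultures, so p-values measure only the spread between these samples.

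Eicosanoids are short-lived lipid messengers made from arachidonic acid, which a phospholipase A2 cuts from membrane phospholipids. Lipoxygenases turn it into leukotrienes and hydroxy fatty acids, while cyclooxygenases turn it into prostaglandin H2, from which terminal synthases make prostaglandin E2, thromboxane A2 and others. Macrophages are a known source of both kinds, and inflammatory and alternatively activated macrophages are known to differ in which they make. Transcript levels say nothing of enzyme activity, and no lipid was measured here.

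Levels are in TPM, which the authors scaled per gene length and library. The length that turned TPM into whole reads was the union of all annotated exons, 1014 bases for Ltc4s and 9094 for Tbxas1. Levels of different genes therefore compare only roughly, because this union can be longer than a single transcript. Tests were made on log2(TPM + 1) by limma, a linear model fitted to all genes together, and a gene is said to have risen or fallen where its Benjamini-Hochberg adjusted p over the 14207 genes tested was under 0.05. Because of the added 1, these differences are smaller than the true change where a gene is low. All 10 genes passed the filter of at least 1 TPM in at least 3 libraries.

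Reads could be recovered from the TPM and the gene lengths, 15809432 to 17089171 in 8 libraries and 32180914 in Q11 replicate 2. Q11 replicate 2 had the lower read number of the pair in 10 of 19235 genes when set against Q11 replicate 3, and in 1928 to 2406 genes against other libraries, so it is taken to contain the reads of replicate 3. Values with the reads of replicate 3 taken out of replicate 2, which left 15330205 reads, are given as separated. As deposited, Q11 replicates 2 and 3 are therefore not independent. SDs of Q11 libraries, and the spread that all tests share, can be too small for that reason. Mgl2 and Mrc1, lectins known to rise with IL-4, were at 132 ± 1.93 and 19.6 ± 0.666 TPM in control libraries and at 1004 ± 90.002 and 87.3 ± 1.71 TPM in M2 libraries (SD, n = 3). Cyp2e1 had 1 read in control replicate 2, 1 in Q11 replicate 3 and 1 in Q11 replicate 2, which may be that of replicate 3 again. The other 6 libraries had 0, which allows up to 3 reads in each by counting error only. All 10 macrophage markers were read, with the lowest level 11.8 TPM (Adgre1). Their summed level was 12168 to 12598 TPM in control, 8374 to 8961 TPM in M2 and 8684 to 8796 TPM in Q11 libraries, mainly through Lyz2 and Cd14, and its part in the results below was not tested. In such bulk samples fewer cells of a type and less RNA per cell cannot be told apart. Of other cells known for eicosanoids, mast cell markers (2 of 6 in the table) summed to at most 0.282 TPM and eosinophil markers (4 of 4) to at most 0.652 TPM. Neutrophil markers (4 of 6) summed to 30.2 to 39.2 TPM in control, 19.4 to 31.9 TPM in M2 and 18.3 to 21.3 TPM in Q11 libraries. Of these S100a8 was at 16.1 to 38.03 TPM, while Mpo stayed at or under 0.0598 TPM and Elane at or under 1.004 TPM. Mmp8 averaged 1.11 TPM in control, 1.99 TPM in M2 and 1.37 TPM in Q11 libraries. Among platelet markers (4 of 5) Pf4 was at 601 to 660.3 TPM. Gp9 stayed at or under 0.119 TPM, Itga2b at or under 0.793 TPM and Ppbp at or under 1.29 TPM.

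With IL-4 and IL-13, the cyclooxygenase gene Ptgs1 rose 1.49-fold, and both Alox5 (5-lipoxygenase) and Ptgs2 (the inducible cyclooxygenase) fell, by factors of 2.28 and 1.73. The other 7 genes did not pass. Among all genes tested, 6.88% rose and 5.75% fell, against 1 and 2 of these 10. The median difference was -0.11 on the log2 scale over the 10 genes and -0.0026 over all genes tested. M2 and control libraries did not overlap in 8 of the 10 genes, beside 28.4% of all genes. The counts over all genes move with single libraries, and the 1794 genes called in all became 1146 without control replicate 1 and 1178 without control replicate 3. With the reads separated 1291 genes were called. Alox5, Ptgs1 and Ptgs2 passed in each of 18 other fits.

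**Figure D1:**
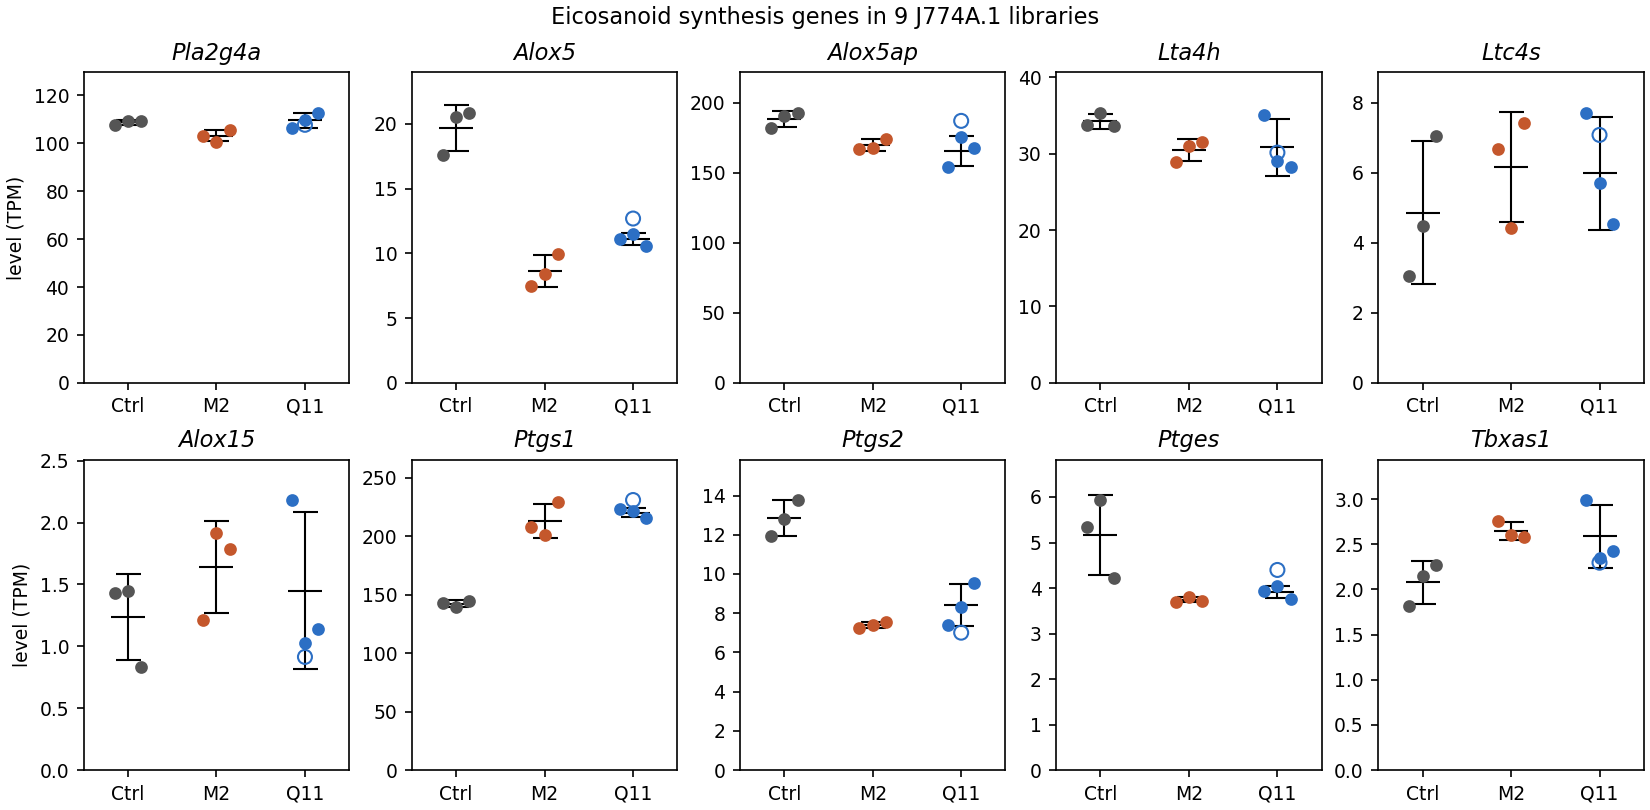
Level of each of the 10 genes (vertical axis, TPM, from 0) in control, M2 and Q11 libraries. Filled points are libraries in replicate order, horizontal bars with whiskers are the mean and SD of 3 libraries, and the open circle is Q11 replicate 2 with the reads of replicate 3 taken out. Alox5 and Ptgs2 lie lower and Ptgs1 higher in every M2 and Q11 library than in any control library, while Ltc4s and Alox15 overlap across all groups.

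The bases before the start sites of the 3 genes that changed are shown, because they changed in different directions under the same cytokines. IL-4 and IL-13 signal through STAT6, a factor known to bind TTC and GAA with 4 free bases between them, called the STAT6 site here. RefSeq promoters (build GRCm38.p6) were found for 8 of the 10 genes, and 250 bases before each start were searched on both strands for the STAT6 site, TTCNNNGAA (the spacing of other STAT factors), GGGCGG (GC box), TATAAA, TGACGTCA (CRE), TTNNGNAA (a loose C/EBP pattern) and the NF-kB consensus. The stretches are chr6:116461179-116461428 on the minus strand (Alox5), chr2:36230176-36230425 on the plus strand (Ptgs1) and chr1:150099781-150100030 on the plus strand (Ptgs2). They read 5′ to 3′, with every match in capitals:
Alox5: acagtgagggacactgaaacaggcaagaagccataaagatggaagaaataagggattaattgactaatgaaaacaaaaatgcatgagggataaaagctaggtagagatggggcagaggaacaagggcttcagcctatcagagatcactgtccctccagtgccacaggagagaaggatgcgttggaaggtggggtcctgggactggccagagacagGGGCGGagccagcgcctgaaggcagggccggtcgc
Ptgs1: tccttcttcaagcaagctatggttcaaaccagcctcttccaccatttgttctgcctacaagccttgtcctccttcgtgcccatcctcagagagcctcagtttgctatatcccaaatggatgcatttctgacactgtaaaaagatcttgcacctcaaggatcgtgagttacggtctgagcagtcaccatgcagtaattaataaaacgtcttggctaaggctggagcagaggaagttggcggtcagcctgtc
Ptgs2: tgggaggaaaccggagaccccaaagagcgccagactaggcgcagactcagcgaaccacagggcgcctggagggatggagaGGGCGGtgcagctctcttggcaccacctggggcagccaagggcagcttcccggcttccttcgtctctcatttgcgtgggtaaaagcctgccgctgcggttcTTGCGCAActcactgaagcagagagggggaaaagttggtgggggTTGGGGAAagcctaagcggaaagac

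Alox5 held 1 GC box, 35 to 30 bases before the start, and no other match. The Ptgs1 stretch held none of the 7 patterns. Ptgs2 held 1 GC box at -170 to -165 and 2 matches to the C/EBP pattern, at -69 to -62 (a match on both strands) and at -25 to -18. A GC box was in 32.7% and the C/EBP pattern in 36.8% of the 32851 promoters of that length. The STAT6 site, found in 5.85% of all promoters, was in none of these 3 stretches but in those of Ptges (TTCAAAAGAA, -197 to -188) and Tbxas1 (TTCTGGGGAA, -121 to -112). The stretches of Ptges (chr2:30903298-30903547) and Tbxas1 (chr6:38918736-38918985) precede RefSeq starts that lie inside the gene spans given below. Ptges and Tbxas1 did not pass the test in any of the 3 comparisons. Matches are a description of letters and not of binding, and a window without one says nothing about a factor.

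Release of arachidonic acid starts with Pla2g4a, the calcium-dependent cytosolic phospholipase A2 (ENSMUSG00000056220, GRCm38 chromosome 1, 149829618 to 149961290, minus strand). Its level was 108, 109 and 109 TPM in control replicates 1 to 3, 103, 101 and 105 TPM in M2 replicates and 106, 109.7 and 113 TPM in Q11 replicates. All M2 libraries lay below all control and all Q11 libraries, but by little. Neither difference passed, at -0.08 for M2 against control (95% interval -0.15 to -0.0081, adjusted p = 0.147) and 0.09 for Q11 against M2 (0.02 to 0.16, adjusted p = 0.368).

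Alox5 makes the leukotriene precursor LTA4 from arachidonic acid (ENSMUSG00000025701, chromosome 6, 116410077 to 116461178, minus strand). It lay at 17.6, 20.5 and 20.8 TPM in control replicates 1 to 3, at 7.51, 8.37 and 9.93 TPM in M2 and at 11.1, 11.5 and 10.6 TPM in Q11 replicates. These values rest on 351 to 426 reads in control and 155 to 195 reads in M2 libraries. No library of any group overlapped with another group, and Q11 libraries lay between the other two groups. Alox5 fell by 1.11 on the log2 scale in M2 against control (95% interval -1.34 to -0.88, adjusted p = 1.87e-04), the largest difference among the 10 genes. In Q11 against control it fell by 0.77 (-0.999 to -0.55, adjusted p = 0.00160).

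Alox5ap encodes FLAP, the membrane protein that presents arachidonic acid to 5-lipoxygenase (ENSMUSG00000060063, chromosome 5, 149264767 to 149288153, plus strand). It was the highest of the 10 genes in control libraries, at 182, 190.4 and 193 TPM, and lay at 167, 168 and 174 TPM in M2 and 154, 176 and 167 TPM in Q11 replicates. All M2 and all Q11 libraries were below all control libraries, although with separated reads Q11 replicate 2 was at 187 TPM, within the control range. In M2 against control the difference was -0.15 (95% interval -0.26 to -0.04, adjusted p = 0.0735). It passed without Q11 replicate 1 (adjusted p = 0.0280), with quantile normalization (0.0383) and by limma-voom on the recovered reads (0.0440). Without Q11 replicate 1 the difference stayed at -0.15, and the spread can be too small because Q11 replicates 2 and 3 share reads. In Q11 against control Alox5ap fell by 0.19 (adjusted p = 0.0367). That call was lost with the reads separated (adjusted p = 0.183), with no filter (0.0740), with no trend (0.0880) and without control replicate 1, 2 or 3, M2 replicate 1 or 2, or Q11 replicate 1 or 3 (0.0501 to 0.111). The ratio of Alox5ap to Alox5 TPM was 9.62 ± 0.619 in control, 19.9 ± 2.36 in M2 and 15.0 ± 1.02 in Q11 libraries (SD, n = 3). Of the exon bases of Alox5ap 13.3% also lie in Gm19719 on the other strand, which reached at most 1.21 TPM.

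Lta4h encodes the hydrolase that makes LTB4 (ENSMUSG00000015889, chromosome 10, 93453411 to 93484875, plus strand). It lay at 33.8, 35.3 and 33.6 TPM in control, 28.8, 31.01 and 31.5 TPM in M2 and 35.1, 29.004 and 28.3 TPM in Q11 replicates. M2 libraries were below control libraries without overlap, whereas Q11 replicate 1 stood apart from the other Q11 libraries and inside the control range. The difference of M2 from control did not pass (-0.16, 95% interval -0.34 to 0.01, adjusted p = 0.220). For Q11 against control it was -0.15 (adjusted p = 0.271), and it passed only without Q11 replicate 1 (-0.25, adjusted p = 0.0274). That fit keeps only Q11 replicates 2 and 3, which share reads, so its spread can be too small.

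Ltc4s joins glutathione to LTA4 to make LTC4, the first of the cysteinyl leukotrienes (ENSMUSG00000020377, chromosome 11, 50236461 to 50238616, minus strand). It was read only 15 to 55 times per library, at 3.05, 4.48 and 7.07 TPM in control, 6.67, 4.42 and 7.43 TPM in M2 and 7.72, 5.71 and 4.54 TPM in Q11 replicates. The groups overlapped, and the interval of M2 against control was wide (0.32, from -0.30 to 0.95, adjusted p = 0.514). Of its exon bases 26.4% also lie in Gm26542 on the other strand, and no source used here gives the strand setting of the counting.

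Alox15, the 12/15-lipoxygenase, is known to be induced by IL-4 in human monocytes (ENSMUSG00000018924, chromosome 11, 70344152 to 70352031, minus strand). It was the lowest of the 10 genes in all groups, on 10 to 26 reads per library. It lay at 1.43, 1.45 and 0.834 TPM in control, 1.22, 1.91 and 1.79 TPM in M2 and 2.18, 1.03 and 1.14 TPM in Q11 replicates. The groups overlapped, and the difference of M2 from control was 0.24 (95% interval -0.30 to 0.78, adjusted p = 0.581). A change was not detectable at this depth, and the interval does not exclude a rise of 0.78 in log2(TPM + 1). At this low level the added 1 makes such a value smaller than the true change. With 0.1 TPM added in place of 1, the difference was 0.39 (limma adjusted p = 0.573).

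Ptgs1 encodes cyclooxygenase-1, the form usually made constantly (ENSMUSG00000047250, chromosome 2, 36230426 to 36252272, plus strand). It lay at 143, 139 and 145 TPM in control, 208, 201 and 229 TPM in M2 and 223, 222 and 216 TPM in Q11 replicates, on 2699 to 8183 reads. All cytokine-treated libraries were above all control libraries. Ptgs1 rose by 0.57 in M2 against control (95% interval 0.47 to 0.68, adjusted p = 8.63e-05) and by 0.62 in Q11 against control (0.52 to 0.73, adjusted p = 6.10e-05). Of its exon bases 3.81% also lie in Gm43621 on the other strand, which reached at most 5.84 TPM.

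Ptgs2 encodes cyclooxygenase-2, the form known to be induced by inflammatory signals (ENSMUSG00000032487, chromosome 1, 150100031 to 150108227, plus strand). It lay at 11.9, 12.8 and 13.8 TPM in control, 7.25, 7.41 and 7.54 TPM in M2 and 7.42, 8.29 and 9.53 TPM in Q11 replicates. M2 libraries lay within a narrow range, and no M2 or Q11 library reached the lowest control library. Ptgs2 fell by 0.72 in M2 against control (95% interval -0.92 to -0.51, adjusted p = 0.0013) and by 0.56 in Q11 against control (-0.77 to -0.35, adjusted p = 0.00517).

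Ptgs1 and Ptgs2 thus changed in opposite directions, so their ratio differed between groups. The ratio of Ptgs1 to Ptgs2 TPM was 11.1 ± 0.782 in control, 28.8 ± 1.61 in M2 and 26.5 ± 3.73 in Q11 libraries (SD, n = 3). Ptgs2 made up 8.26% ± 0.519 of the summed TPM of both genes in control, 3.37% ± 0.183 in M2 and 3.68% ± 0.511 in Q11 libraries. The sum of both was 155 ± 3.12, 220.3 ± 14.5 and 229 ± 2.98 TPM. Both ratios are descriptions of genes already tested one by one.

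**Figure D2:**
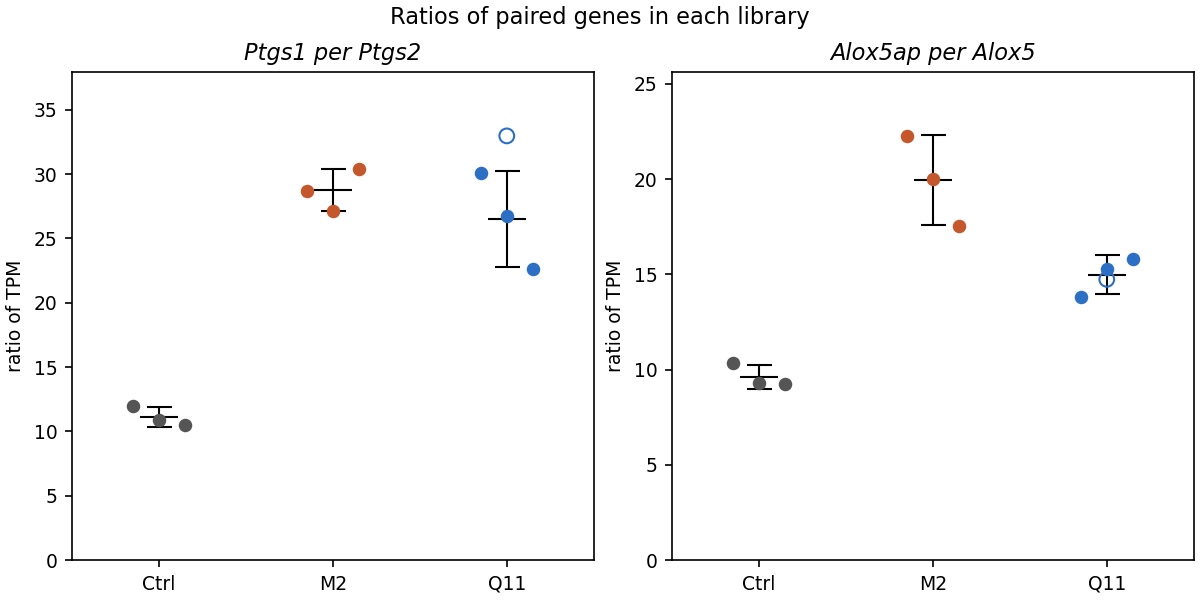
Ratio of TPM levels in each library (vertical axis, from 0) for Ptgs1 per Ptgs2 and for Alox5ap per Alox5, by group. Filled points are libraries, bars with whiskers are mean and SD of 3, and the open circle is Q11 replicate 2 with the reads of replicate 3 taken out. Ptgs1 per Ptgs2 is 10.5 to 12.01 in control and 22.6 to 30.4 in treated libraries as deposited (33.0 at the open circle), and for Alox5ap per Alox5 the Q11 libraries (13.8 to 15.8) lie between control (9.25 to 10.3) and M2 libraries (17.6 to 22.3).

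Downstream of prostaglandin H2, Ptges makes prostaglandin E2 and is usually induced together with Ptgs2 (ENSMUSG00000050737, chromosome 2, 30889471 to 30929863, minus strand). It lay at 5.35, 5.93 and 4.22 TPM in control, 3.69, 3.80 and 3.73 TPM in M2 and 3.93, 4.04 and 3.77 TPM in Q11 replicates. M2 and Q11 libraries were below all control libraries as deposited, but separated Q11 replicate 2 was at 4.40 TPM, above control replicate 3. The differences did not pass, at -0.37 for M2 against control (95% interval -0.64 to -0.10, adjusted p = 0.0768) and -0.32 for Q11 against control (-0.58 to -0.05, adjusted p = 0.132). Control replicate 3 was the lowest of its group, and without it both passed (-0.49 with adjusted p = 0.0276, and -0.43 with adjusted p = 0.0437).

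Tbxas1, thromboxane A synthase, was low in all groups (ENSMUSG00000029925, chromosome 6, 38875404 to 39084585, plus strand). It lay at 1.81, 2.15 and 2.27 TPM in control, 2.76, 2.61 and 2.58 TPM in M2 and 2.99, 2.35 and 2.42 TPM in Q11 replicates. All treated libraries were above all control libraries, by less than the test could separate from the spread (0.25 for M2 against control, 95% interval -0.06 to 0.55, adjusted p = 0.289).

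In control libraries the order of mean TPM was Alox5ap, Ptgs1, Pla2g4a, Lta4h, Alox5, Ptgs2, Ptges, Ltc4s, Tbxas1 and Alox15. This order also depends on the exon lengths used. Ptges and Ltc4s were the only neighbours whose control libraries overlapped. In M2 and in Q11 libraries Ptgs1 stood above Alox5ap, and Ltc4s above Ptges, without overlap. Alox5 (7.51 to 9.93 TPM) and Ptgs2 (7.25 to 7.54 TPM) overlapped in M2 libraries, as did Ptgs2 and Ltc4s in both treated groups. The 10 genes together summed to 519.8 ± 10.9 TPM in control, 546 ± 23.7 TPM in M2 and 559.7 ± 8.08 TPM in Q11 libraries (SD, n = 3).

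Q11 against M2 asked what Q11 changed in cells that also received the cytokines, whose dose is given only for M2. Of the 10 genes 0 passed, as did 0 (0%) of all 14207 genes by limma. Without adjustment, 1620 genes in all and 2 of these 10 had a p under 0.05. The limma-voom fit to recovered reads called 2 genes in all and 0 of these 10. The count over all genes became 1 when control replicate 3 was left out and 2 when M2 replicate 1 was, and in both fits 0 of the 10 passed. The groups did not overlap in 2 of the 10 genes, Alox5 and Pla2g4a, beside 17.6% of all genes. Alox5 was at 8.61 ± 1.23 TPM in M2 and 11.1 ± 0.467 TPM in Q11 libraries as deposited (SD, n = 3), 1.29-fold higher with Q11. The Q11 SD is narrowed by the shared reads, as Q11 replicate 2 was at 11.5 TPM as deposited and at 12.7 TPM separated. The difference of Alox5 was 0.34 on the log2 scale (95% interval 0.11 to 0.56, unadjusted p = 0.00854, limma adjusted p = 0.330). With the reads separated it was 0.38 (0.13 to 0.63, adjusted p = 0.576), and over 18 other fits the adjusted p was 0.138 to 0.814.

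For the remaining genes the intervals show what Q11 could still have changed. Ptgs1 differed by 0.05 (-0.05 to 0.15), Ptgs2 by 0.16 (-0.05 to 0.36), Alox5ap by -0.04 (-0.14 to 0.07) and Ptges by 0.05 (-0.21 to 0.32). For Ltc4s (-0.66 to 0.59) and Alox15 (-0.67 to 0.41) the intervals were the widest. In Q11 replicate 3 Ptgs2 was higher than in the other Q11 libraries, and separating the shared reads lowered the difference to 0.09 (-0.16 to 0.33).

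Q11 against control shares its control libraries with M2 against control. Here Ptgs1 rose and Alox5, Alox5ap and Ptgs2 fell, against 5.19% and 5.53% of all genes. As deposited, Q11 and control libraries did not overlap in 6 of the 10 genes, beside 32.1% of all genes. Alox5ap and Ptges were among the 6 but overlapped with the reads separated. The total of 1524 genes called became 792 without Q11 replicate 2 and 771 without Q11 replicate 3. With the reads separated 3 of the 10 passed, all but Alox5ap, beside 1100 genes in all.

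**Figure D3:**
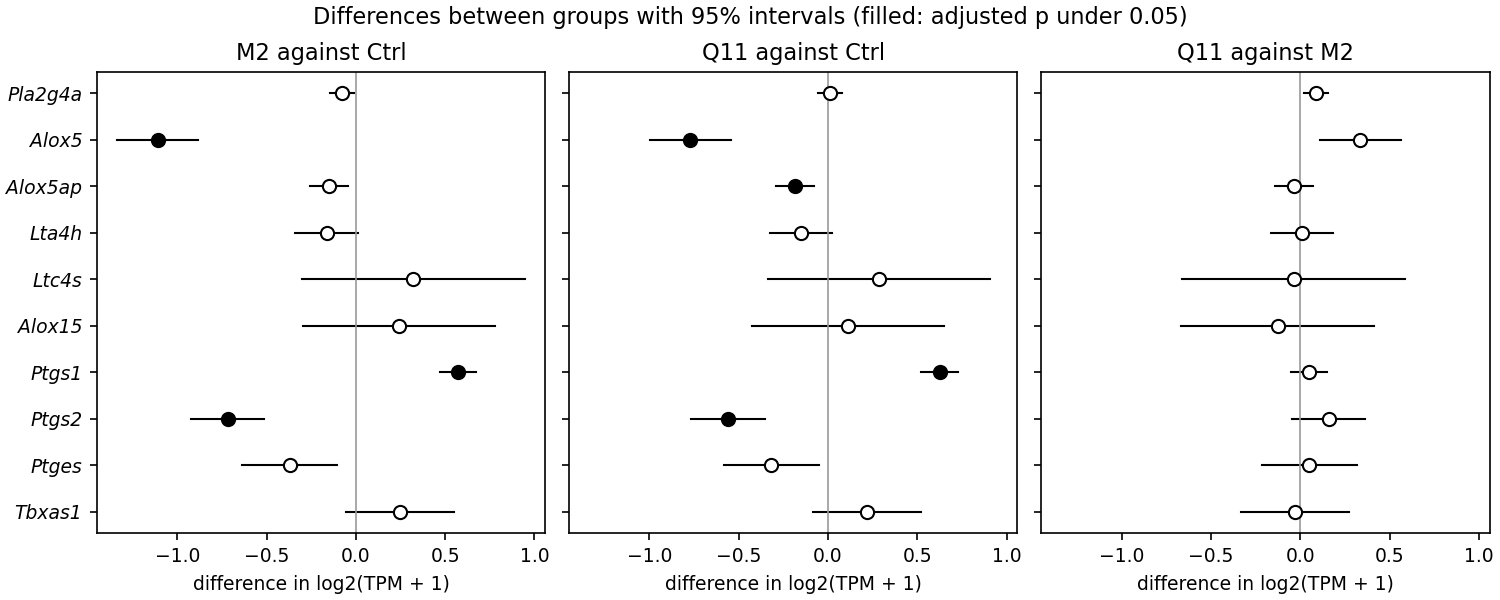
Difference in log2(TPM + 1) between groups for each of the 10 genes (horizontal axis), for M2 against control, Q11 against control and Q11 against M2. Lines are 95% intervals and filled points passed at an adjusted p under 0.05. Alox5, Ptgs1 and Ptgs2 are filled in both comparisons with control, Alox5ap only in Q11 against control, and none is filled in Q11 against M2.

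A wider list of 76 genes around these enzymes held 61 genes of the table, of which 44 were tested and 17 were below the filter. In M2 against control 3 of the 44 rose and 4 fell (median difference 0.0041), beside the 6.88% and 5.75% of all genes. In Q11 against control 1 rose and 5 fell (median -0.04), beside 5.19% and 5.53% of all genes, and in Q11 against M2 0 passed. The M2 count of 7 became 4 without control replicate 1 or without M2 replicate 3, and the Q11 count of 6 became 3 with quantile normalization.

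Of 17 tested genes for release and re-esterification of arachidonic acid, 2 rose and 3 fell in M2 against control, beside 6.88% and 5.75% of all genes. Pla2g7, which cleaves platelet-activating factor and oxidized phospholipids, read 19.4, 21.8 and 20.2 TPM in control, 10.96, 13.2 and 10.7 TPM in M2 and 15.4, 13.8 and 13.3 TPM in Q11 replicates. It fell by 0.77 in M2 against control (adjusted p = 7.96e-04) and by 0.50 in Q11 against control (adjusted p = 0.00846), with no overlap between any of the groups. Lpcat2, which makes platelet-activating factor from its lyso form, fell from 23.1 ± 0.634 to 15.4 ± 1.87 TPM in M2 (adjusted p = 0.00302) and was at 13.4 ± 0.921 TPM in Q11 libraries (adjusted p = 7.37e-04 against control). The secreted phospholipase gene Pla2g5 rose from 87.6 ± 3.84 to 107 ± 2.73 TPM in M2 (adjusted p = 0.00703). In Q11 libraries Pla2g5 was at 99.6 ± 6.22 TPM (adjusted p = 0.0474 against control), a call lost without any 1 of the 9 libraries (0.0559 to 0.139), with the replicate block (0.0601), no filter (0.0892), quantile normalization (0.0531) or no trend (0.09996).

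Of the same 17 genes, Acsl4, which activates arachidonic acid to its CoA ester, fell from 228 ± 10.4 to 198 ± 9.53 TPM in M2 (adjusted p = 0.0277). Lpcat3, which puts arachidonic acid into phospholipids, rose from 138 ± 4.79 to 152 ± 4.08 TPM (adjusted p = 0.0283). The Acsl4 call was lost without control replicate 1 or 3 or M2 replicate 1 or 3 (0.0643 to 0.0934), with the replicate block (0.0698), with no filter (0.0604) and with no trend (0.0699). The Lpcat3 call was lost without control replicate 1 or 2, M2 replicate 3 or Q11 replicate 2 or 3 (0.0513 to 0.0867), with quantile normalization (0.0842) and with no trend (0.0794).

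Among receptors, 6 of 11 genes in the table were tested. Ptger4, the EP4 receptor for prostaglandin E2, was at 8.87, 9.66 and 9.30 TPM in control, 4.40, 5.43 and 4.47 TPM in M2 and 4.06, 4.91 and 4.55 TPM in Q11 replicates. All treated libraries lay below all control libraries, and Ptger4 fell by 0.84 in M2 and by 0.90 in Q11 against control (adjusted p = 9.59e-04 and 6.80e-04). Ltb4r1, the LTB4 receptor BLT1, rose from 1.06 ± 0.285 to 3.12 ± 1.28 TPM in M2 (adjusted p = 0.0375), on 22 and 63 reads in all. That call was lost with the reads separated (0.0618), with the replicate block (0.0602), with no filter (0.0848) and without any 1 library other than M2 replicate 2 or Q11 replicate 1 (0.0548 to 0.113). Ptgir, the prostacyclin receptor, was the highest receptor of the list, at 137 ± 2.32, 143 ± 5.06 and 138 ± 4.72 TPM (adjusted p = 0.310 for M2 against control). Cysltr1, a cysteinyl leukotriene receptor, was at 7.28 ± 0.872, 5.53 ± 0.351 and 7.31 ± 1.12 TPM (adjusted p = 0.108 for M2 against control).

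None of the 8 other prostanoid synthases tested passed in any comparison. Ptges3, the cytosolic prostaglandin E synthase that is also a cochaperone, was at 268, 271 and 286 TPM on average in control, M2 and Q11 libraries. Ptges2 was at 14.5, 15.0 and 15.3 TPM, Hpgds, which makes prostaglandin D2, at 5.46, 5.59 and 5.17 TPM, Prxl2b at 30.1, 28.7 and 32.3 TPM, Akr1b3 at 105, 108 and 106 TPM, and the carbonyl reductase genes Cbr1 and Cbr3 at 29.1 and 34.0 TPM in control libraries. Of 5 tested genes for other lipoxygenase and leukotriene steps, 2 fell in Q11 against control, where 5.53% of all genes fell. Cotl1, a binding partner of 5-lipoxygenase, stood at 1428 ± 48.8 TPM in control libraries against 1274 ± 19.9 TPM in Q11 libraries (adjusted p = 0.00928, and 0.0925 with quantile normalization). Mgst2, which can also make LTC4, was at 14.8 ± 1.19 and 11.6 ± 0.575 TPM (adjusted p = 0.0487). The Mgst2 call was lost with the reads separated (0.0532), the replicate block (0.107), no filter (0.0964), quantile normalization (0.0683) or no trend (0.0724), and without control replicate 2 or 3, M2 replicate 2 or Q11 replicate 1, 2 or 3 (0.0631 to 0.142). The 7 tested genes for breakdown and export and the 1 tested CYP branch gene did not pass in any comparison.

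**Figure D4:**
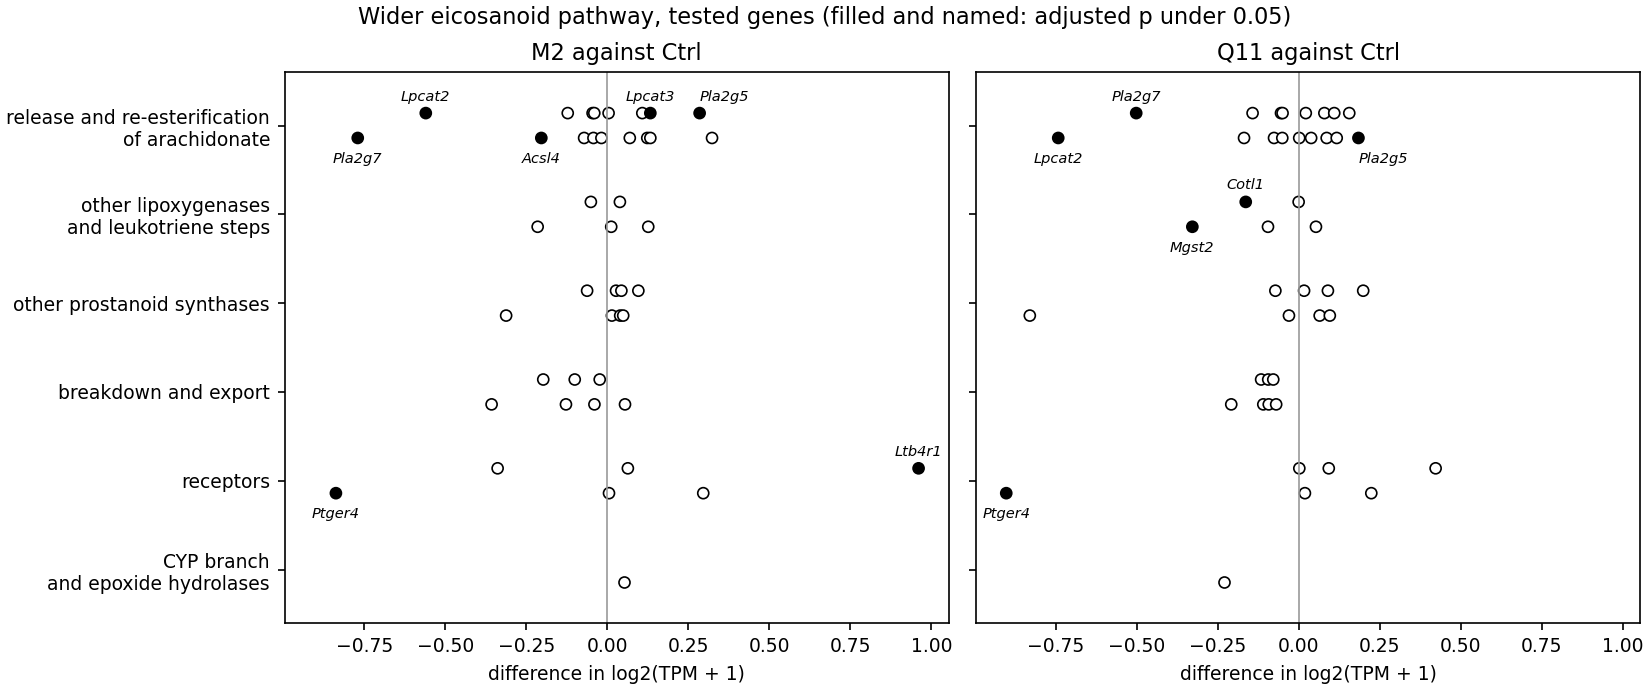
Difference in log2(TPM + 1) (horizontal axis) of the 44 tested genes of the wider list, by class, for M2 against control and Q11 against control. Each point is 1 gene, and filled, named points passed at an adjusted p under 0.05. Pla2g7, Lpcat2 and Ptger4 are filled on the lower side in both panels.

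Genes with the pattern most like those of the 3 that changed were found by Pearson's r of log2(TPM + 1) over the 9 libraries, among the 10102 genes whose mean reached 5 TPM. For Ptgs1 these were Ldlrad3 (r = 0.993), Brwd1 (0.993) and Sft2d2 (0.990). Alox5 was most like Dnaaf9 (0.985), Extl3 (0.978) and Mafa (0.978), and Ptgs2 most like Slc25a37 (0.981), Cept1 (0.979) and Atp8b4 (0.979). These r values are descriptions over libraries that share their groups.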

How the data were processed

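Per the labels' protocols, a NEBNext Ultra kit was used on poly-A RNA. The submitters' processing notes name GRCm38, StringTie 1.3.3b and HISAT2 2.0.5. No source used here gives the annotation or how reads were counted. All values come from a single table of TPM deposited by the authors. Gene IDs were matched to GENCODE M21 (25573 of 26157, 97.8%), the source of coordinates and exon lengths. In each library TPM times exon length was a whole multiple of a common step for 98.8% to 99.1% of values up to 20 reads (tolerance 0.1 read), which gave the recovered reads.

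The fit used limma 3.58.1 in R 4.3.3 on log2(TPM + 1) over all 9 libraries (1 mean per group, eBayes with trend, 6 residual degrees of freedom), with two-sided tests, 3 contrasts and genes at 1 TPM or more in at least 3 libraries. It was also run on simulated data in which all libraries were independent, so that run says nothing about the shared reads. Alternatives were 2 other pseudocounts, 2 other filters, quantile normalization, no trend, a replicate block, the shared reads separated, limma-voom and each library left out. The rest used pandas 2.3.3 and numpy 2.4.6 in Python 3.11.15, with figures by matplotlib 3.10.9.

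The genes and lists were chosen with earlier results of these data known. All 10 genes were named, with genes of the wider list that passed in any contrast, its receptors and synthases at 5 TPM or more, and the 3 genes most like each changed gene. Of the wider list 15 genes were not analysed here.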

Additional observations from a re-analysis of the deposited data

How the results depend on the processing

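Alox5, Ptgs1 and Ptgs2 kept their direction and stayed past the threshold in both comparisons with control in each of 18 alternatives. Of 531 differences of the 10 genes under an alternative, 502 kept direction and side of the threshold, 10 lost a call, 6 gained one and 13 turned in sign. Those that turned were differences that did not pass. Leaving out 1 library gave -0.080 to 0.014 for Alox5ap, -0.084 to 0.066 for Lta4h, -0.23 to 0.12 for Ltc4s and -0.11 to 0.019 for Tbxas1 in Q11 against M2, and -0.0093 to 0.032 for Pla2g4a and -0.090 to 0.24 for Alox15 in Q11 against control. Ltc4s also turned with the reads separated (0.052 in Q11 against M2) and Pla2g4a with quantile normalization (-0.013 in Q11 against control). Left-out libraries gave 1146 to 1656 genes called in M2 against control, 0 to 2 in Q11 against M2 and 771 to 1616 in Q11 against control, and 4 to 9 genes of the wider list in M2 against control. In Q11 against M2 there were 3 genes with no filter, 2 with no mean-variance trend and 2 by limma-voom, and quantile normalization left 3 genes of the wider list in Q11 against control. The cause was not tested.

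Replicate numbers are shared by the groups, but same-numbered libraries did not deviate together (r of -0.114 to 0.112 over 10102 genes). Such values cannot show whether same-numbered libraries shared a culture or a day. With the replicate block 1335 genes passed in M2 against control, 0 in Q11 against M2 and 1086 in Q11 against control. Among the 10 genes 3, 0 and 4 passed, and of the wider list 5, 0 and 4. A filter of 5 TPM leaves Alox15, Ptges and Tbxas1 untested. Depth limits Ltc4s and Alox15, with 10 to 55 reads per library.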
